A study of Mus musculus with 42 samples.

Results

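Transcripts of the phase II conjugation enzymes, which attach glutathione, glucuronic acid or sulfate to drugs, carcinogens and steroids, were measured on 2-colour Agilent microarrays in 3 tissues of mice that had received BkF, short for benzo(k)fluoranthene, one of the polycyclic aromatic hydrocarbons. The members were all probes whose gene symbol names a glutathione S-transferase (Gst) or a microsomal glutathione S-transferase (Mgst). Probes for a UDP-glucuronosyltransferase of the Ugt1a, Ugt2a or Ugt2b groups, or for a sulfotransferase (Sult), were members too. There were 78 such probes, for 57 genes, among 55681 probes on the array. They comprised 33 probes for 22 Gst genes, 5 for 3 Mgst genes, 5 for 3 Ugt1 genes, 10 for 9 Ugt2 genes and 25 for 20 Sult genes. A probe was kept in a tissue when the scanner software marked it as well above background in Cy5 on 3 or more arrays of that tissue. That left 49 probes for 34 genes in lung, 60 probes for 44 genes in liver and 53 probes for 38 genes in forestomach, out of 32693, 26637 and 25301 probes of any kind. Of the 57 genes, 46 were kept in at least 1 tissue and 31 in all 3. The other 15 probes were kept nowhere, and most of them belonged to the Sult2a group and to Sult3a1, Sult6b1 and Sult6b2.

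All animals were adult male Muta™Mouse about 11 weeks old, a transgenic strain that carries a bacterial lacZ reporter for mutation assays, and all received olive oil by gavage every day for 28 days. The vehicle group (D0) received oil alone, and the groups D1, D2 and D3 received BkF in the oil at 25, 50 and 100 mg/kg body weight per day. Tissues were collected 72 h after the last dose. The lung arrays numbered 4, 3, 4 and 4 from D0 to D3, the liver arrays 4, 2, 3 and 4, and the forestomach arrays 4, 3, 4 and 3, which made 42 arrays from 15 mice. Each value is a log2 ratio of the mouse sample (Cy5) over a common reference RNA pooled from mouse cell lines (Cy3), so values are compared between samples for 1 probe and not between probes. A difference was called when its adjusted p was at most 0.05, with Benjamini-Hochberg adjustment over all probes kept, and it was at least 1.5-fold.

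Such hydrophobic hydrocarbons are first oxidised by cytochrome P450 enzymes, and the reactive epoxides, phenols and quinones that result are then made water-soluble by conjugation. Glutathione S-transferases take the epoxides, UDP-glucuronosyltransferases and sulfotransferases take the phenols, and liver is the classical site of all these steps. Several members, among them Ugt1a6 and Gsta1, are textbook targets of the aryl hydrocarbon receptor (AhR), and others, such as Gstm1 and Gstp1, are textbook targets of the oxidative stress regulator Nrf2.

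The markers of each labelled tissue were high where they should be. The mean log2 ratio of 8 hepatocyte markers was 7.82 to 8.56 in the livers, that of 6 alveolar markers was 4.82 to 5.66 in the lungs, and that of 8 squamous epithelium markers was 2.64 to 3.77 in the forestomachs. Some arrays stood apart. Of the 14 forestomach arrays, 5 had a mean of the 10 glandular stomach markers between 0.50 and 1.52, and 9 had a mean between 5.28 and 6.40. Glandular stomach is the tissue next to the squamous forestomach. The 5 low arrays were D0 mice 1 and 4, D2 mouse 11 and D3 mice 16 and 20, so none was in D1. All 10 glandular markers were well above background on each of the 9 other arrays, against 3 to 5 of the 10 on the 5 low ones. The lung of D1 mouse 7 had a glandular mean of 4.24 against a median of 0.98 over all lungs, the lung of D2 mouse 12 had a skeletal muscle mean of 4.56 against a median of −0.73, and the liver of D3 mouse 17 had one of 3.41 against −0.79. The liver of D2 mouse 12 stood apart in the conjugation enzymes themselves and is described on its own after the dose comparisons. In bulk tissue, fewer cells of a type and less RNA per cell cannot be told apart. On each slide the position of an array followed the dose groups almost exactly, so array position and dose cannot be told apart either. The livers were on other slides than the lungs and forestomachs and were read with another version of the scanner software. On the slides they shared, all lungs lay in row 1 and all forestomachs in row 2. Differences between tissues therefore cannot be told apart from slide, software version or slide row.

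In vehicle mice, most conjugation enzymes had their highest level in liver, a smaller set had it in forestomach, and none had it in lung. Between lung and liver, 51 of 62 member probes were called, 50 higher in liver and 1 higher in lung, where 43.5% of all probes kept were called (25% higher and 18.5% lower in lung). Of those 62, 15 had passed the filter in only 1 of the 2 tissues. Over the 47 kept in both, 40 were called, 39 higher in liver, against 49.9% of all such probes, and the median difference, lung minus liver, was −2.90. Between liver and forestomach, 55 of 63 were called, 44 higher in liver and 11 higher in forestomach, against 41.5% of all probes (18.8% and 22.7%). Over the 50 kept in both tissues, 44 were called, 35 higher in liver, against 44.9%, with a median of 2.37. Between lung and forestomach, 37 of 55 were called, 8 higher in lung and 29 higher in forestomach, against 33.5% of all probes (18.4% and 15.1%). Over the 47 kept in both, 32 were called, 25 higher in forestomach, against 37.5%, with a median of −0.83. When a probe was counted as highest in a tissue only if both differences were called, 44 probes for 31 genes were highest in liver, 11 probes for 10 genes were highest in forestomach, and 8 probes had no single highest tissue. Of these, 32, 9 and 4 probes had been kept in all 3 tissues.

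**Figure D1:**
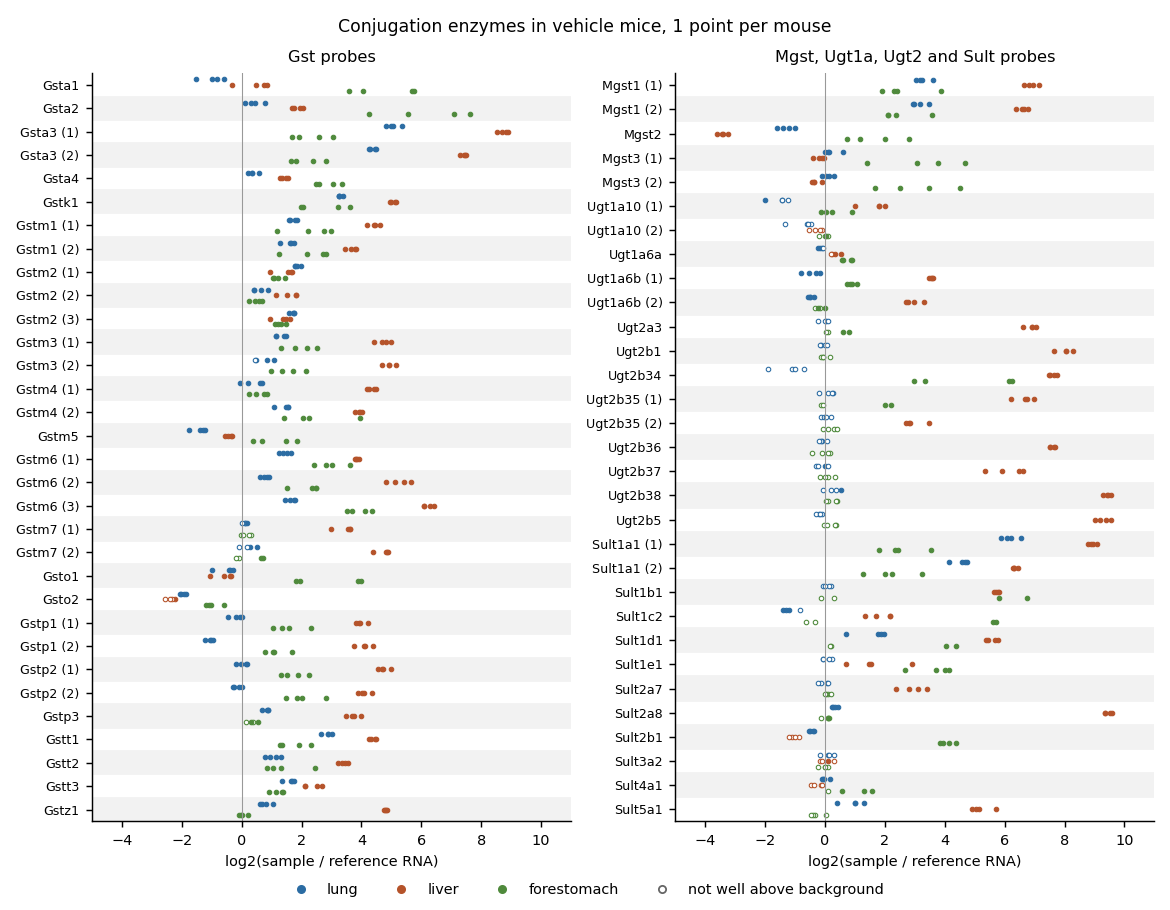
Log2 ratio of sample over reference RNA in each vehicle mouse (D0) for every member probe kept in any tissue, grouped by enzyme family over 2 panels, with 4 lung, 4 liver and 4 forestomach points per probe. Open symbols mark arrays where the probe was not well above background. All 9 Ugt2 probes sit highest in liver, while Gsta1, Gsta2, Gsto1, Mgst2, Mgst3 and Sult2b1 sit highest in forestomach.

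The Ugt2 enzymes, which glucuronidate steroids, bile acids and many drugs, were a liver group. All 9 of their probes kept in any tissue were highest in liver, and no Ugt2 gene was kept in lung. Only 3 of the 9 were also kept in forestomach, so most had passed the filter through liver alone, the tissue where they are high. Ugt2b5 was 9.28 ± 0.23 in liver (SD, n = 4), −0.19 ± 0.07 in lung and 0.19 ± 0.20 in forestomach. Because it was not well above background on any vehicle lung array, the difference is a bound. That bound sets the mean Cy5 level in liver, scaled between arrays, against a floor in the other tissue, which on each array is the lowest level among probes well above background or the probe's own level where that is higher. Where the fold of the log ratios was lower than this, it was given as the bound. Without a dye swap these values may hold dye bias. Ugt2b5 was at least 508-fold higher in liver than in lung and at least 452-fold higher than in forestomach, and Ugt2b36 at least 204-fold and 201-fold higher. Ugt2b1 reached at least 192-fold over lung and 169-fold over forestomach, and Ugt2a3 at least 94.4-fold over lung. Ugt2b34 was also high in forestomach. It was 7.60 in liver and 4.67 ± 1.76 in forestomach, a difference of 2.94 (SE 0.67, adjusted p = 0.00031), and it was at least 33.0-fold higher in forestomach than in lung.

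The promoter of Ugt2a3, a glucuronosyltransferase of liver and gut, is shown because it alone among the 9 Ugt2 windows held the marked motif. The motif was thus not shared by the liver-high Ugt2 genes. The 9 windows also include that of Ugt2a1, which was kept in no tissue. The window is chr5:87337166-87337445 on the minus strand of the RefSeq GRCm38.p6 assembly, from 250 bases before the gene's start through its first 30 bases. Capitals mark a short HNF1 motif, named for a transcription factor of hepatocytes and searched as GTTAAT or ATTAAC. It begins 54 and 47 bases before the start.
Ugt2a3: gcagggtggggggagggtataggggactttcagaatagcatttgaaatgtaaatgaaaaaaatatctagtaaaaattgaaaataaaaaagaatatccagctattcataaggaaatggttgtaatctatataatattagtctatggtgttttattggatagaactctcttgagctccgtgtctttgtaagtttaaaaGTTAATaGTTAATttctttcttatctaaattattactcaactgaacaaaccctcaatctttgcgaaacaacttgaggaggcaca
Of the 57 member genes, 50 had a promoter entry of 300 bases. This HNF1 motif was present in 10 of those 50 windows and in 7.10% of 32851 promoters of the same length. A match describes the letters in the window and not a bound site.

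Among the glutathione S-transferases, 24 of 32 probes were highest in liver. Gstz1, the maleylacetoacetate isomerase of tyrosine breakdown, was 4.81 ± 0.03 in liver, 0.78 ± 0.18 in lung and 0.03 ± 0.13 in forestomach (SD, n = 4 each), so that lung lay 4.02 below liver on the log2 scale (SE 0.14, adjusted p = 2.31e-23). Gsta3, of the alpha class, had a called difference in every pair of tissues in the order liver, lung, forestomach, at 8.73 ± 0.16, 5.06 ± 0.22 and 2.31 ± 0.63. Gstt1, of the theta class, had the same order (4.38, 2.86 and 1.72). Gstp1 and Gstp2, the pi class enzymes that are known for conjugating the diol epoxides of such hydrocarbons, had the order liver, forestomach, lung. Gstp2 was 4.73 ± 0.18, 1.74 ± 0.42 and 0.03 ± 0.16, and Gstp1 was 3.97 ± 0.17, 1.57 ± 0.54 and −0.17 ± 0.22. The third pi gene, Gstp3, was 3.72 in liver, with lung (0.82) and forestomach (0.35) not separated by a call. Its probe was well above background on only 5 forestomach arrays, so its level there is uncertain.

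A different set was highest in forestomach. Gsta1 was 4.78 ± 1.11 in forestomach, 0.43 ± 0.53 in liver and −0.98 ± 0.40 in lung, and Gsta2 was 6.14 ± 1.53, 1.85 ± 0.17 and 0.41 ± 0.29. For Gsta1, lung lay 5.75 below forestomach (lung minus forestomach −5.75, SE 0.58, adjusted p = 5.08e-10) and liver minus forestomach was −4.34 (SE 0.58). The related alpha class genes split between tissues, since Gsta4, which takes the lipid peroxidation product 4-hydroxynonenal, was also highest in forestomach (2.87, against 1.41 in liver and 0.37 in lung) while Gsta3 was highest in liver. Gsto1, of the omega class, was 2.91 in forestomach, −0.59 in liver and −0.52 in lung, and Gstm5 was 1.09, −0.42 and −1.42. Gsto2 was −0.97 in forestomach, above −2.37 in liver and −1.97 in lung. Its probe was well above background on only 3 liver arrays, so the size of its difference from liver is uncertain.

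The promoters of Gsta1 and Gsta2 are shown because these 2 genes shared their tissue order and are close copies of each other. Capitals mark the core of the xenobiotic response element, the sequence read by AhR, searched as GCGTG or CACGC. The Gsta1 window is chr9:78230419-78230698 on the plus strand and the Gsta2 window chr9:78347116-78347395 on the minus strand.
Gsta1: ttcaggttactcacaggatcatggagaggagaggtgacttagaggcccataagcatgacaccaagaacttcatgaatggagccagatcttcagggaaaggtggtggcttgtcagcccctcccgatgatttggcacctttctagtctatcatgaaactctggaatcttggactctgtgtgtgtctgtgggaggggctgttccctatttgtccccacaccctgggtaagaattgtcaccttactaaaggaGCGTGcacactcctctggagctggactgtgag
Gsta2: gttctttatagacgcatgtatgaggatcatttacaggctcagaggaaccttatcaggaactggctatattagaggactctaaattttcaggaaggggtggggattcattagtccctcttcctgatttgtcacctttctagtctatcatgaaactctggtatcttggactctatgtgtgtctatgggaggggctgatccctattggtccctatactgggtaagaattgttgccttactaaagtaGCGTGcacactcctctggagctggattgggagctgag
The core begins 2 bases before the start of Gsta1 and 7 bases before that of Gsta2, and the longest stretch the 2 windows share is 29 bases. It was present in 9 of the 50 member windows and in 32.4% of all promoters. Genes this alike can also share signal on an array, so the values of Gsta1 and Gsta2, of the Gstm, Ugt2b and Sult2a genes, and of Gstp1 and Gstp2 are uncertain as to which copy they read.

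The microsomal glutathione S-transferases divided in the same way. Mgst1, abundant in hepatocytes, was 6.60 in liver, 3.14 in lung and 2.54 in forestomach. Mgst2, which can make leukotriene C4, was 1.69 ± 0.91 in forestomach, −1.30 ± 0.27 in lung and −3.43 ± 0.16 in liver. It was the only member probe called higher in lung than in liver (2.13, SE 0.41, adjusted p = 3.39e-05). Mgst3 was 3.04 in forestomach, 0.09 in lung and −0.31 in liver, with no call between the last pair.

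Sulfotransferases were divided as well, with 6 probes highest in liver and 2 in forestomach. Sult2a8, a hydroxysteroid and bile acid sulfotransferase of liver, was 9.45 ± 0.12 in liver, 0.31 ± 0.09 in lung and 0.06 ± 0.12 in forestomach. Sult1a1, the main phenol sulfotransferase, was 6.34 ± 0.062 in liver, 4.53 ± 0.27 in lung and 2.18 ± 0.81 in forestomach, and all 3 differences were called for both of its probes. Sult2b1, the cholesterol sulfotransferase of squamous epithelia, was 4.07 ± 0.24 in forestomach and −0.45 in lung, and it was at least 34.4-fold higher in forestomach than in liver. Sult5a1 was at least 45.1-fold higher in liver than in forestomach and at least 2.17-fold higher in lung than in forestomach.

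Several of the forestomach levels went with the glandular markers. Across the 14 forestomach arrays of all dose groups, 10 of 53 member probes (18.9%) were higher on every 1 of the 9 glandular-rich arrays than on any of the 5 glandular-poor ones, and 6 (11.3%) were lower on every 1. Among all probes these shares were 3.74% and 0.79%. Several of the 10 passed the filter through the rich arrays, since Sult1b1 and Ugt2b35 were well above background on 0 of the 5 poor arrays and Sult1c2 and Sult1d1 on 1. Over the 44 members well above background on at least 3 arrays of each kind, 6 were higher and 6 lower, against 2.83% and 0.987% of all such probes. Sult1c2 averaged 5.62 on the rich arrays and −0.62 on the poor ones, Sult1b1, a thyroid hormone sulfotransferase, 6.12 and 0.32, and Sult1d1, which takes catecholamines, 4.20 and 0.43. The other probes that were higher read Ugt2b34 (6.55 and 3.59), Gsta2 (7.53 and 4.63), Mgst3 (4.30 and 1.84), Gsto1 (4.32 and 2.03), Gsta1 (5.77 and 3.73), Ugt2b35 (1.97 and −0.04) and Mgst2 (2.73 and 1.03). The 6 lower ones were the 2 probes each of Gstm1 and Mgst1 and 1 each of Gstm3 and Gstm4, with Gstm1 at 1.60 and 2.83. Hepatocyte markers moved with this split as well. Their mean was 0.38 to 0.78 on the 5 poor arrays, with 2 to 3 of the 8 markers well above background, and 0.53 to 3.37 on the 9 rich ones. It was highest on D2 mouse 15 (3.37) and D0 mice 2 and 3 (2.79 and 2.40), each with 7 of 8 markers well above background, and the part of these markers in the forestomach values was not tested.

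The vehicle mice held 2 arrays of each kind, and the tissue differences were therefore fitted again without the glandular-rich and then without the glandular-poor forestomachs. On the glandular-poor arrays alone, the excess of forestomach over lung was still called for Gsta1 (−4.81 for lung minus forestomach), Gsta2 (−4.51), Gsto1 (−2.41), Mgst2 (−2.26), Mgst3 (−2.03) and Sult2b1 (−4.33). It was also called for Ugt2b34, whose lung level was at background in all 4 vehicle mice. The call was lost for Sult1b1 and Sult1c2. Neither was well above background on the 2 glandular-poor vehicle forestomachs, nor was Sult1b1 in any vehicle lung, so no size is given there. On the glandular-rich arrays the difference of Sult1c2 was −6.86. That of Sult1d1 was −2.63 on the rich arrays and was called in the opposite direction on the poor vehicle ones, where the probe was not well above background. Of the 37 probes called between lung and forestomach, 32 were still called on the glandular-poor arrays and 34 on the glandular-rich ones.

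**Figure D2:**
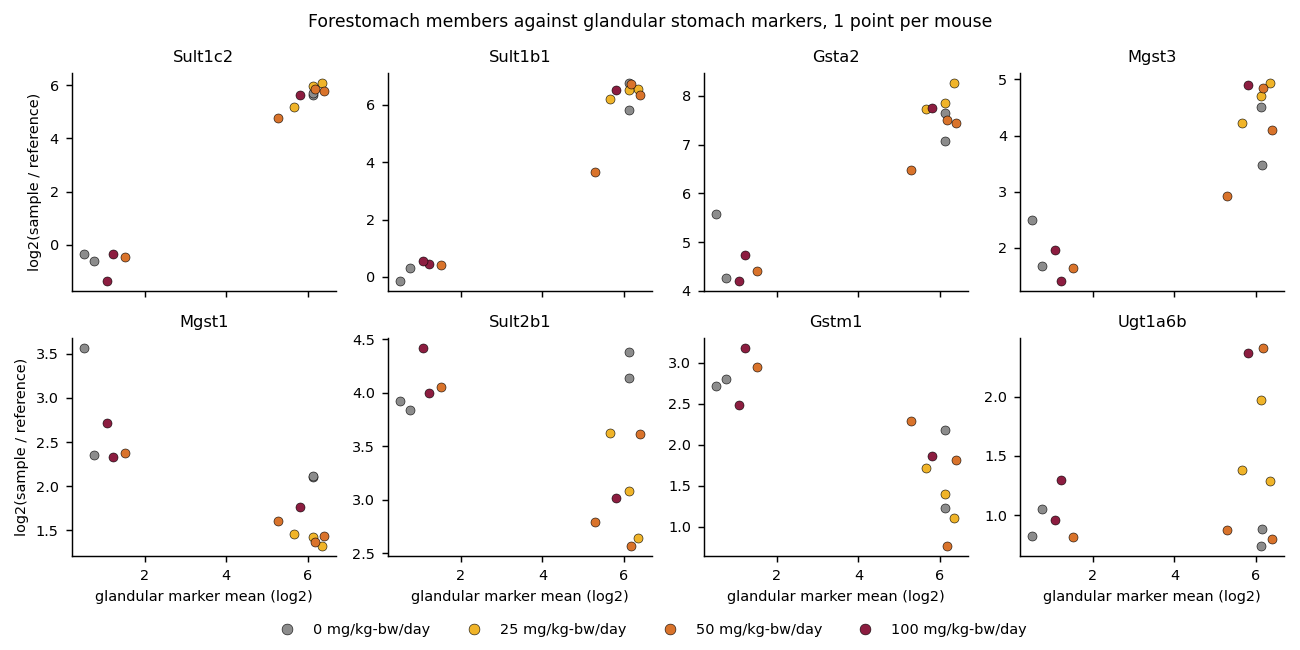
Log2 ratio of 8 member genes in each of the 14 forestomach arrays (vertical axis) against the mean log2 ratio of 10 glandular stomach markers on the same array (horizontal axis), coloured by dose group. The 5 glandular-poor arrays lie at 0.50 to 1.52 on the horizontal axis. Sult1c2 is at −1.37 to −0.33 there and at 4.76 to 6.08 on the 9 glandular-rich arrays, and Sult1b1 at −0.15 to 0.55 and 3.66 to 6.76, whereas Gstm1 and Mgst1 are lower on the glandular-rich arrays.

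After 28 days of BkF, no member probe was called in any tissue at any dose by limma. In lung, 0 of 49 member probes were called at D1, D2 and D3 and for the linear trend over dose, where 0%, 0.0153%, 0.0336% and 0.0336% of all probes were called. At an unadjusted p under 0.05, 4, 7, 8 and 8 members passed, against 1.76%, 4.25%, 8.02% and 8.48% of all probes. In liver, 0 of 60 were called at D1, D2, D3 and for the trend, against 0%, 0.0488%, 0.0601% and 0% of all probes, and 0, 19, 8 and 10 members had an unadjusted p under 0.05, against 1.54%, 11.7%, 8.52% and 9.36%. In forestomach, 0 of 53 members and 0% of all probes were called at each dose and for the trend. There 12, 8, 0 and 0 members had an unadjusted p under 0.05, against 12.1%, 7.58%, 2.2% and 2.81% of all probes. The values that follow are therefore descriptions of the members, none of which passed the test. At D3, limma called 11, 16 and 0 probes of any kind in lung, liver and forestomach. With another test at the same cutoffs, the study listed more genes for BkF at this dose in each tissue.

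**Figure D3:**
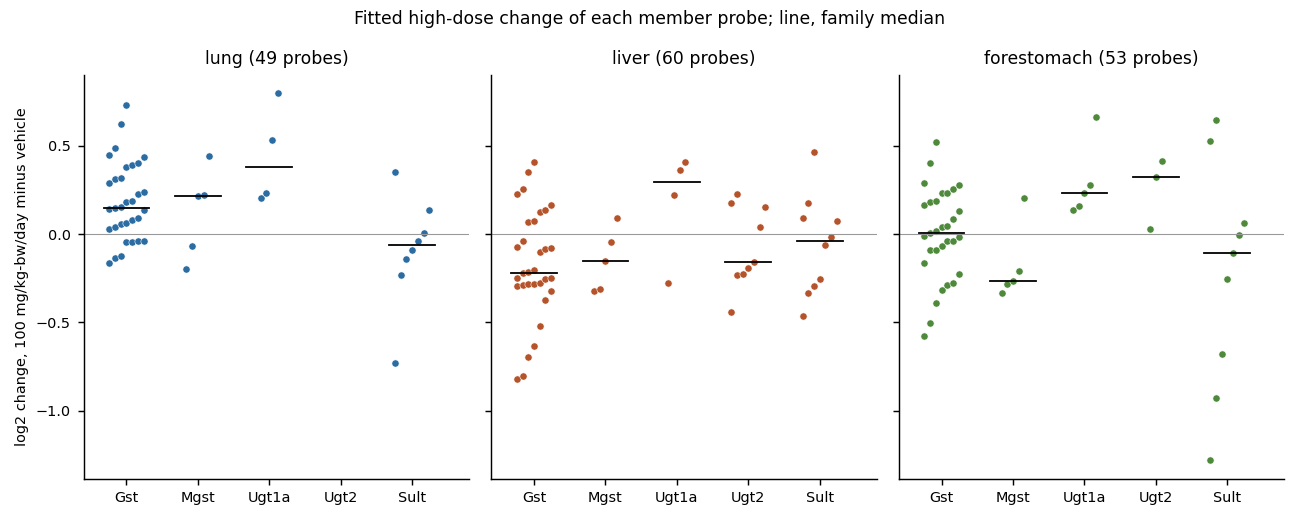
Fitted log2 change from D0 to D3 for each member probe kept in lung (49), liver (60) and forestomach (53), by enzyme family, with a line at each family's median. Lung probes lie mostly above 0 (median 0.15, 35 of 49 positive), liver probes mostly below 0 (median −0.15, 39 of 60 negative) and forestomach probes on both sides (median 0.02). No probe was called.

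In lung the member changes at D3 leaned upward, with 35 of 49 fitted above 0 and a median of 0.15, while the median over all probes was 0.00. The lung of D3 mouse 20 stood apart, with 33.3% of the members and 30.9% of all probes outside the range of the other lungs. The median log2 ratio of the spike-in probes was 0.61 to 0.78 in the D0 lungs and higher than that in 3 of 4 D3 lungs, up to 1.59 in mouse 20. Without mouse 20, 34 of 49 members were fitted above 0 with a median of 0.10, and 6 rather than 8 had an unadjusted p under 0.05. Markers of other cells also lay higher at D3, with overlap between the groups. The club and ciliated airway mean was 4.16 to 5.18 in D0 (median 4.73) and 4.47 to 6.05 in D3 (5.15), and the heart muscle mean −0.06 to 2.35 (0.96) and 1.45 to 3.14 (1.73), each highest in mouse 20. The part of these markers and of the spike-in shift in the lean was not tested. By family, 25 of 32 Gst probes (median 0.15), 3 of 5 Mgst probes (0.21), 4 of 4 Ugt1 probes (0.38) and 3 of 8 Sult probes (−0.06) were above 0. Gstp2 of the pi class had the lowest p-value. It read 0.13, −0.19, −0.01 and 0.17 in the 4 D0 mice, 0.24, 0.64 and 0.22 in D1, 0.63, 0.78, 0.35 and 0.54 in D2, and 0.99, 0.75, 0.44 and 0.85 in D3. Every treated mouse was thus above every vehicle mouse, in order of mean from D0 to D3. The fitted change at D3 was 0.73 (SE 0.14, 1.66-fold, unadjusted p = 0.00013), with an adjusted p of 0.14, and that of the trend was 0.12. With slide as a block the change was 0.73 (adjusted p = 0.092), and on each of the 4 slides the D3 lung was above the D0 lung. The second Gstp2 probe differed by 0.44 (SE 0.14, adjusted p = 0.43) and the 2 Gstp1 probes by 0.39 and 0.40, whereas Gstp3 differed by −0.04 (SE 0.19).

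The promoters of Gstp1 and Gstp2 are shown because the fitted changes of these 2 genes lay above 0 in lung and below 0 in liver. Capitals mark the AP-1 site, the sequence bound by Jun and Fos proteins, searched as TGAGTCA or TGACTCA, a motif chosen after the sequences had been seen. The Gstp1 window is chr19:4037883-4038162 and the Gstp2 window chr19:4042192-4042471, both on the minus strand.
Gstp1: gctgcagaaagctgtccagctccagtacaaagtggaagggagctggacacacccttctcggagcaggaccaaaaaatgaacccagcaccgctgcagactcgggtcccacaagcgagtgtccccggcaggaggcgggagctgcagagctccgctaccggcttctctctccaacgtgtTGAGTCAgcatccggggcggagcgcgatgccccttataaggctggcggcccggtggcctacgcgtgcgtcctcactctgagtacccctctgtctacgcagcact
Gstp2: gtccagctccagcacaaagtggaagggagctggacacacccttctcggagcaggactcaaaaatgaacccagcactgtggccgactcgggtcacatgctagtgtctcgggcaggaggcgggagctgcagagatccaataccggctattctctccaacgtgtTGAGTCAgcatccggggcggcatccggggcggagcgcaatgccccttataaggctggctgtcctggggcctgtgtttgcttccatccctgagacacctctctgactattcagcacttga
The site begins 74 bases before the start of Gstp1 and 89 bases before that of Gstp2, inside a stretch of 34 bases that the 2 windows share. It was present in 6 of 50 member windows and in 5.20% of all promoters. The antioxidant response element core of Nrf2, searched as TGACNNNGC on both strands, was present in 3 of the 50 windows and in 12.4% of all promoters. Neither the Gstp1 nor the Gstp2 window held it. The Gstp1 window also held 1 xenobiotic response element core, which is not marked.

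Ugt1a6b and Ugt1a6a, which glucuronidate small phenols, were next by p-value in lung. Ugt1a6a read −0.16, −0.09, −0.24 and −0.07 in D0 and 0.48, 0.48, 0.07 and 0.55 in D3, so that the D3 mice were all above the D0 mice. Its change at D3 was 0.53 (SE 0.13, adjusted p = 0.32). The probe was dim, with a mean log2 intensity over both channels of 6.53 in lung, against 12.5 for the main Ugt1a6b probe. It was well above background on 13 lung arrays, against 15 for that probe. Ugt1a6b read −0.18, −0.79, −0.53 and −0.31 in D0 and 0.30, 0.26, −0.15 and 0.97 in D3, again without overlap, and its change was 0.80 (SE 0.23, adjusted p = 0.40). A second Ugt1a6b probe differed by 0.23 (SE 0.12) and its groups overlapped. Genes of the Ugt1 locus share their last exons, and which of them a probe reads is uncertain. The promoter of Ugt1a6a, on the plus strand at chr1:88134559-88134838, held no xenobiotic response element core in the window and 1 HNF1 motif, marked in capitals, which begins 50 bases before the start.
Ugt1a6a: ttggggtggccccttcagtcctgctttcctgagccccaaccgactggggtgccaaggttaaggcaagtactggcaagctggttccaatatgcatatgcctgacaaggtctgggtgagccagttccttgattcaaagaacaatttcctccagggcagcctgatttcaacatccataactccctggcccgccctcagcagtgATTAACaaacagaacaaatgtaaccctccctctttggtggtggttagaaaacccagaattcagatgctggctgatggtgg

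**Figure D4:**
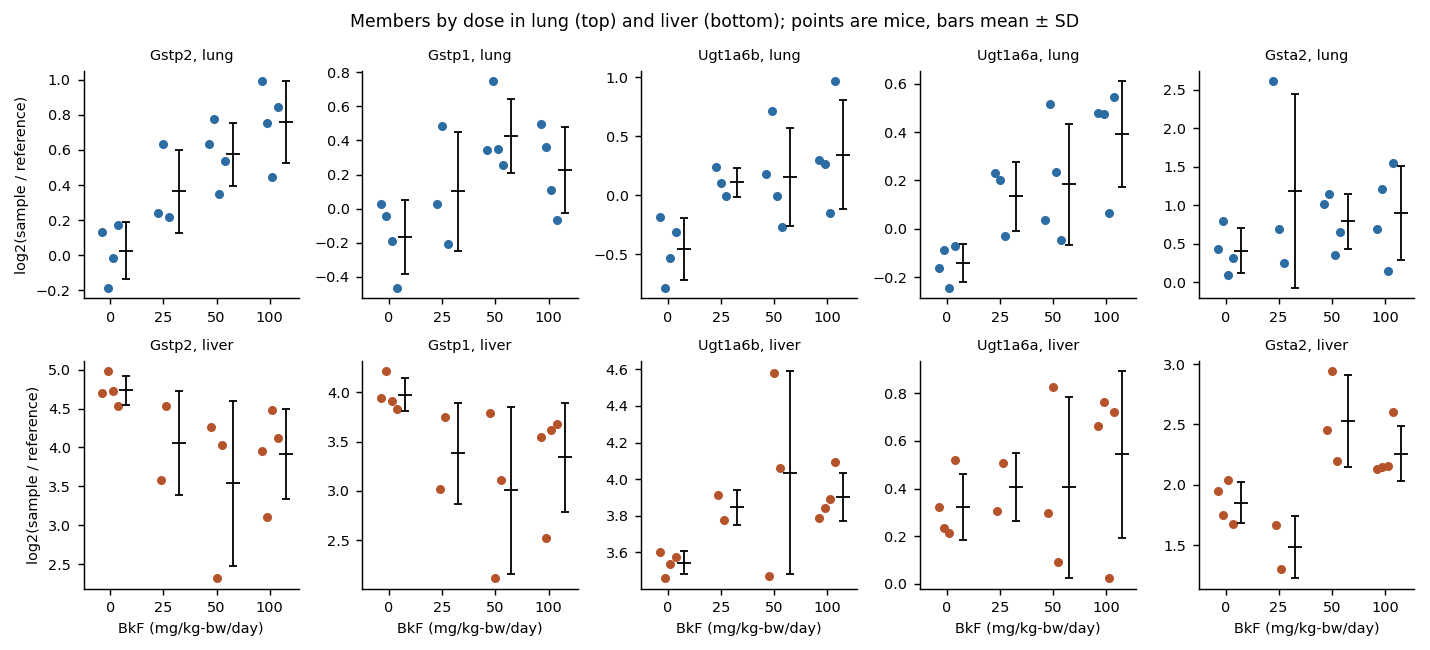
Log2 ratio of Gstp2, Gstp1, Ugt1a6b, Ugt1a6a and Gsta2 in each mouse by dose group (D0 to D3, 0 to 100 mg/kg body weight per day), with lung in the upper row and liver in the lower row, and bars at the group mean ± SD. The mean of Gstp2 in lung is higher at each successive dose, while in liver all treated mice lie below the 4 D0 mice.

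Among the other lung members, the alpha class was wide. Gsta2 read 0.43, 0.79, 0.10 and 0.32 in D0 and 0.69, 1.21, 0.15 and 1.54 in D3 (change 0.49, SE 0.42), and Gsta1 differed by 0.62 (SE 0.57). Leaving out single arrays gave 0.27 to 0.74 for Gsta2 and 0.34 to 0.93 for Gsta1, the latter lowest without D3 mouse 20. The highest lung values of both, 2.61 and 2.28, came from D1 mouse 7, the array with high glandular markers, and their part in that result was not tested. A Gstm1 probe differed by 0.38 (SE 0.15, adjusted p = 0.53) without overlap between D0 and D3, but the other Gstm1 probe by 0.04 (SE 0.14). Sult1a1 read 4.67, 4.73, 4.59 and 4.14 in D0 and 4.60, 4.23, 4.52 and 3.85 in D3, which overlapped (change −0.23, SE 0.24, adjusted p = 0.88). Without single arrays this change ran from −0.36 to −0.082. The second Sult1a1 probe differed by −0.73 (SE 0.32, adjusted p = 0.58). Counting whole groups, 6 of 48 member probes had every D3 lung above every D0 lung and 0 had every D3 lung below, against 2.94% and 2.35% of all probes. The 6 read Gstp2 (2 probes), Gstp1, Ugt1a6a, Ugt1a6b and Gstm1.

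Lists by regulator are parts of the members already counted above, so they are no separate evidence of the lean. Gsta1 and Gsta2 are on both lists. Of 20 probes for 11 members linked to Nrf2, 20 were fitted above 0 in lung at D3 with a median of 0.23. Of these, 5 had an unadjusted p under 0.05. Over all probes in lung at D3, 50.9% were above 0 and 8.02% had such a p. Of 5 probes for 4 members of the AhR gene battery, 5 were above 0 with a median of 0.53. In liver the corresponding numbers were 6 of 20 (median −0.15) and 4 of 5 (0.22), and in forestomach 9 of 20 (−0.05) and 3 of 5 (0.23). No probe of either list was called in any tissue. Other steps of the pathway in lung at D3 held calls, since 2 of 12 probes for the phase I enzymes that oxidise these hydrocarbons (median 0.30) and 2 of 17 for the regulators of both phases (0.27) rose, where 0.0336% of all probes were called. None was called of 16 probes for the supply of glutathione, UDP-glucuronic acid and sulfate donors (0.17), of 15 for other conjugating enzymes (0.05) or of 10 for the export and breakdown of conjugates (−0.01). In liver and forestomach none of these lists held a call at D3.

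In liver the lean at D3 was downward. There 39 of 60 member probes were fitted below 0 with a median of −0.15, against −0.01 over all probes, and 23 of 32 Gst probes were below 0. Other measures moved with dose on the same arrays. The hepatocyte marker mean was 8.32 to 8.56 in D0 and 7.82 to 8.28 in D3, without overlap and with all 8 markers well above background on each array. The fat marker mean was 0.32 to 0.59 in D0 and 0.45 to 2.61 in D3, and the spike-in median was 0.852 to 1.53 in D0 and 0.275 to 0.848 in D3. Their part in the liver values at D3, among them those of Ugt2b38, Gstm6 and Gstk1, was not tested. Gstp2 read 4.70, 4.98, 4.72 and 4.54 in D0, 3.59 and 4.53 in D1, 4.26, 2.32 and 4.03 in D2, and 3.96, 3.10, 4.48 and 4.12 in D3. Each treated liver was below every vehicle liver, although the higher D1 value, 4.53, lay just under the lowest D0 value, 4.54. The change at D3 was −0.82 (SE 0.39, adjusted p = 0.60), and the second Gstp2 probe and the 2 Gstp1 probes differed by −0.69, −0.63 and −0.80. Gstp3 differed by 0.17 (SE 0.15). D2 mouse 12 and D3 mouse 17 had the lowest Gstp2 values, and without both arrays the change was −0.55 (SE 0.21, adjusted p = 0.44). For the brighter Gstp1 probe, leaving out single livers gave changes of −0.74 to −0.36.

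The fitted changes of the Gstp1 and Gstp2 probes, which may read each other's copy, were above 0 in lung and below 0 in liver, and those of Gstp3 were not. None was called, and the difference itself was tested. The D3 effect in lung minus that in liver was 1.55 for Gstp2 (SE 0.40, unadjusted p = 0.00047) with an adjusted p of 0.29, and 1.13, 1.03 and 1.21 for the second Gstp2 probe and the Gstp1 probes. These 4 were the only members with an unadjusted p under 0.05 in that comparison, against 4.94% of all probes, and 0 of 62 members were called by limma, against 0.0288%. Without the livers of D2 mouse 12 and D3 mouse 17 the value for Gstp2 was 1.28 (SE 0.28, adjusted p = 0.12). For the effects in lung minus forestomach and liver minus forestomach, 0 of 55 and 0 of 63 members were called, against 0.0119% and 0.00668% of all probes. There 0 and 1 members had an unadjusted p under 0.05, against 4.41% and 3.39%.

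Other liver members with groups that did not overlap were smaller in size. Ugt2b38 read 9.29, 9.45, 9.41 and 9.54 in D0 and 8.86, 8.86, 9.06 and 9.13 in D3 (−0.44, SE 0.12, adjusted p = 0.34), the lowest adjusted p of any member in that comparison. Gstm6 read 6.09, 6.41, 6.08 and 6.28 in D0 and 5.55, 5.61, 5.79 and 5.83 in D3 (−0.52, SE 0.16, adjusted p = 0.38). Gstk1, of mitochondria and peroxisomes, differed by −0.25 (SE 0.09) and Sult1a1 by −0.34 (SE 0.11). In the other direction, Gsta2 read 1.95, 1.75, 2.04 and 1.67 in D0 and 2.13, 2.15, 2.16 and 2.60 in D3 (0.41, SE 0.17, adjusted p = 0.54). Ugt1a6b read 3.60, 3.46, 3.54 and 3.57 in D0 and 3.79, 3.84, 3.89 and 4.09 in D3 (0.36, SE 0.18), but its second probe differed by −0.28. Of the 59 member probes measured on all arrays, 2 had every D3 liver above and 9 every D3 liver below the D0 livers, against 3.06% and 3.35% of all probes.

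The liver of D2 mouse 12 had a pattern of its own. Of its 60 member probes, 43 (71.7%) lay outside the range of the other 12 livers, 20 above it and 23 below it, where 28.8% of all probes on this array did. The liver of D2 mouse 13 had a similar share over all probes (29.7%) but 6.67% of the members outside. Sult2a8 was 2.10 in mouse 12 and 8.39 to 9.58 in the others. Sult1e1, the estrogen sulfotransferase, was 8.69, with the others between 0.68 and 2.90. The other livers formed a narrow band for the first gene and a low one for the second, and mouse 12 lay far from both.

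Further hydroxysteroid sulfotransferases were measured there, although none had been kept in liver. Sult2a1 was 5.42, Sult2a2 4.83 and 2 of 3 Sult2a6 probes 5.53 and 3.85, with the 12 other livers between −0.28 and 0.34. Of these 4 probes, 3 were well above background in no other liver and 1 in a single other liver. Members below the range included Ugt2b1 (5.82, others from 7.63), Ugt2b37 (3.89, others from 5.17), Sult5a1 (3.22, others from 4.72), Sult2a7 (0.37, others from 1.47) and Gstp2 (2.32, others from 3.10). Members above it included Gstt3 (4.50, others up to 2.82), Gstm2 (3.65, others up to 2.22), Gsta1 (2.57, others up to 1.67), Ugt1a10 (3.50, others up to 2.70) and Mgst3 (1.07, others up to −0.11).

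**Figure D5:**
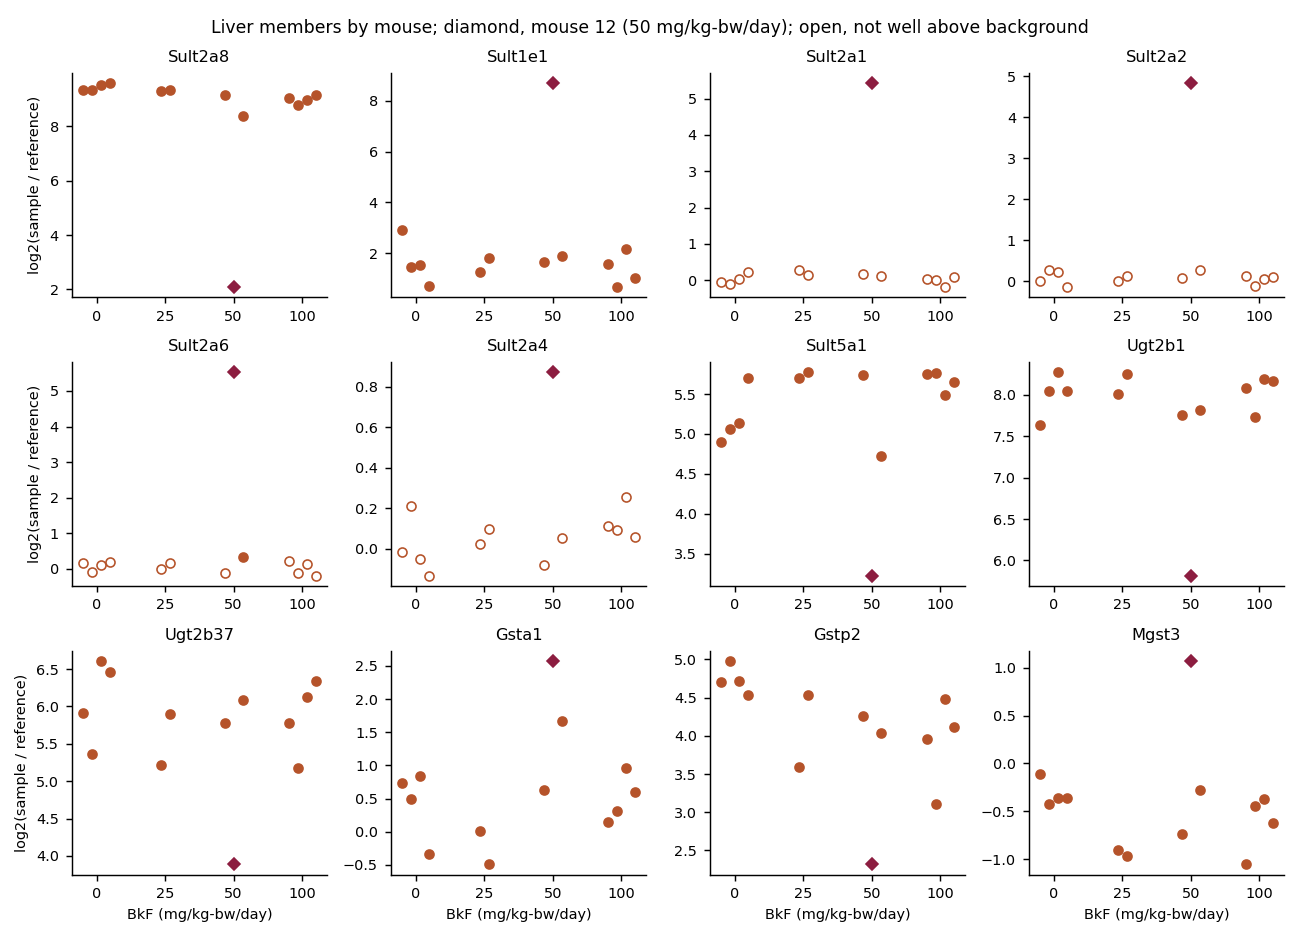
Log2 ratio of 12 conjugation enzymes in each of the 13 livers by dose group, with the liver of D2 mouse 12 as a diamond and the other livers as circles. In mouse 12 Sult2a8 is at 2.10 and Sult1e1 at 8.69, and Sult2a1, Sult2a2 and Sult2a6 are far above the band near 0 that the other livers form.

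In mouse liver, Sult2a1, Sult2a2 and Sult3a1 are known as female-biased genes, and Gstp1 and Gstp2 are known as male-biased. A list of other genes with a known sex bias in liver was therefore looked up after these values had been seen. Of 7 male-biased genes, 6 were lowest in mouse 12 and 1 was within range. Cyp4a12a was 1.36 against 8.21 to 9.12 in the other livers, Hsd3b5 0.21 against 6.13 to 6.81, and Slco1a1 0.29 against 6.44 to 6.97. All 4 female-biased genes looked up were highest in mouse 12, among them Cyp3a44 at 7.91 against 0.05 to 0.83 and Cyp2b9 at 2.96 against −0.09 to 1.04. Xist was −2.04 and not well above background, and the Y-linked Eif2s3y and Ddx3y were 2.06 and 1.85, all within the range of the other livers, which were all labelled male. The hepatocyte marker mean was 7.93, also within range. The cause of the pattern in this 1 liver was not tested. Without it, the number of members with an unadjusted p under 0.05 between D2 and D0 fell from 19 to 5, and none was called.

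In forestomach no direction prevailed at D3, with 28 of 53 members fitted above 0, a median of 0.02 and 0.00 over all probes. The members varied more between mice here than other genes did, since the median SD within groups was 0.56 over the members and 0.27 over all probes (0.26 and 0.20 in lung, 0.31 and 0.19 in liver). Ugt1a6b had one of the larger values at D3. It read 0.82, 0.74, 0.89 and 1.05 in D0, 1.29, 1.97 and 1.38 in D1, 0.82, 2.41, 0.87 and 0.80 in D2, and 0.96, 2.36 and 1.30 in D3 (change at D3 0.66, SE 0.40). Leaving out single arrays gave 0.25 to 0.95 for that change. The D1 mice lay above all D0 mice, while D2 and D3 overlapped with D0. Sult1e1 ranged from 2.66 to 4.14 in D0 and read 4.83, 0.83 and 2.44 in D3 (change −0.93, SE 0.92). Sult1c2 differed by −1.28 (SE 2.06) and Sult1b1 by −0.68 (SE 2.01), and Sult1c2 read −1.37, 5.64 and −0.33 in the 3 D3 mice and −0.33, 5.70, 5.62 and −0.62 in the D0 mice.

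At D1, 6 forestomach members had all mice above and 6 all mice below the D0 mice, against 5.62% and 9.21% of all probes. Those above read Ugt2b34 (2.28), Gsto1 (2.01), Gsta2 (1.81), Gsta3 (1.08), Gstt3 (0.92) and Ugt1a6b (0.67). Those below read the 3 Gstm6 probes (−0.85 to −1.41), Mgst1 (−1.14), Sult2b1 (−0.95) and Gstm2 (−0.30). The 3 D1 arrays were all glandular-rich (marker means of 5.65 to 6.33) and the D0 arrays were 2 rich and 2 poor (0.50 to 6.13). Other marker means were lower in D1 as well. The fat mean was 0.79 to 1.01 in D1 and 1.27 to 2.87 in D0, and the club and ciliated airway mean 1.26 to 1.53 and 1.83 to 2.15. The squamous epithelium mean was 2.74 to 3.18 in D1 and 3.08 to 3.77 in D0. The part of these differences in the member values was not tested.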

How the data were processed

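Per the labels and the study's methods, the authors labelled sample RNA with Cy5 and the reference with Cy3, without a dye swap, and deposited 1 scanner file per array with channel intensity values from Feature Extraction 10.7.3.1 (29 lung and forestomach arrays) or 11.0.1.1 (13 livers), on 6 slides. Outlier-flagged spots (0.392%) and control spots were left out, and no sample-channel spot was saturated. The log2 ratio of the deposited median intensities was normalized by loess within each array, without background subtraction, and spots of a probe were averaged. The deposited log10 ratio of the scanner software, made by the authors' scanner run from background-subtracted and dye-normalized signals, was an alternative, as were normexp background correction, Aquantile scaling, other filters, slide as a block and leaving out arrays. The probe with the highest mean intensity stood for a gene. The authors' MAANOVA test was replaced by limma 3.58.1 in R 4.3.3, which gives moderated tests on these ratios, where a dose fit held every array of its tissue and a fit between tissues held all 42 arrays. Only 47.4% of probes had a gene symbol. The number of arrays limits the precision. The fit was tested on simulated data with independent noise and larger changes than those given for members at D3 in lung and liver. It does not show how often changes of the sizes given there would be called.

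The genes named were those called in any test, those with the most extreme fitted changes at D3 and between tissues, those of the AhR list, and those with the lowest trend p-values of each family. The members, lists and marker sets were chosen with earlier results of these data known. The same mouse number in 2 tissues means the same animal. The deviations of such arrays from their group means correlated with a median r of 0.0753 (lung and liver), 0.153 (lung and forestomach) and 0.0303 (liver and forestomach), and the alternative with mouse as a replicate block had a consensus correlation of 0.0628. Mice of different dose groups are separate animals. The deposited table of processed log2 values, made by the authors, correlated with the scanner ratios at r of 0.997 to 0.999 in lung and 0.994 to 0.999 in forestomach. In liver r was −0.00301 to 0.000338 by probe, but 0.9996 to 0.9999 once both sets were sorted by size, so liver values stand beside other probe names there and that table was an alternative for lung and forestomach alone. Probe sequences and protein sequences were not used here. One gene with a known sex bias in liver is not reported here.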

Additional observations from a re-analysis of the deposited data

Results flagged for a closer look

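The outermost value of a group of 4 arrays was compared with its gap to the next one, relative to the range of the group. Among 103 such groups of the members selected by the naming rule, 8 had a gap beyond the critical value of Dixon's test, and chance flags about 1 in 20 groups. In lung these were D2 mouse 12 for Sult2b1 (2.13) and Gstt1 (1.75) and D3 mouse 19 for Ugt1a6a (0.066). In liver they were D3 mouse 17 for Gstp1 (2.52), D3 mouse 19 for Ugt1a6a (0.023) and D3 mouse 20 for Gsta2 (2.60). In forestomach they were D2 mouse 11 for Gstp1 (1.69), one of the glandular-poor arrays, and D2 mouse 12 for Ugt1a6b (2.41). The lung of D2 mouse 12 and the liver of D3 mouse 17 had the raised skeletal muscle markers given in the report, and the part of these in the values was not tested.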

How the results depend on the processing

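The counts of called members at the vehicle level ran from 49 to 56 (lung and liver), 35 to 40 (lung and forestomach) and 54 to 58 (liver and forestomach) over the alternatives other than keeping only the probes kept in both tissues (40, 32 and 44, chosen after seeing the data), and from 47 to 50, 34 to 37 and 55 to 56 when single arrays were left out. With mouse as a replicate block they were 51, 37 and 55, and no call at the high dose between tissues was gained or lost. Under every alternative other than leaving out arrays, 0 members were called in each dose comparison and trend. Leaving out single arrays gave counts of 0 to 1 at D3 and for the trend in lung, where Gstp2 passed without D3 mouse 19 (0.84, adjusted p = 0.0485 at D3, and 0.83, adjusted p = 0.0379 for the trend), and 0 to 1 at D2 in liver, where Ugt1a6b passed without D2 mouse 11 (0.78, adjusted p = 0.0432). Over the other alternatives the adjusted p of Gstp2 in lung at D3 was 0.092 to 0.433, the highest from its other probe. Over single arrays left out, the number of members with an unadjusted p under 0.05 ran from 1 to 8, 5 to 8, 6 to 11 and 5 to 11 in lung (D1, D2, D3, trend), from 0 to 0, 5 to 27, 6 to 15 and 6 to 19 in liver, and from 4 to 20, 0 to 9, 0 to 2 and 0 to 1 in forestomach. For the effects between tissues it ran from 4 to 6 (lung and liver), 0 to 4 (lung and forestomach) and 0 to 7 (liver and forestomach). The 27 came without D2 mouse 11, the 5 at D2 in liver without D2 mouse 12, the 20 without D0 mouse 2, the 4 at D1 in forestomach without D1 mouse 7, and the 0 at D2 in forestomach without D0 mouse 1 or D2 mouse 12. Without the glandular-poor forestomachs, 1 member was called for the high-dose effect of liver minus forestomach (Ugt1a6b, −1.77, adjusted p = 0.0041).

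Some directions turned, and the cause was not tested. For forestomach at D3, Gsta2 was 0.40, Sult1a1 −0.093 and Sult1b1 0.22 without the glandular-poor arrays, and Sult1b1 0.43 and Sult1e1 0.45 without the rich ones. Sult1b1 was 0.13 with the glandular marker mean as a covariate and 0.42 with the scanner software's ratio. For the forestomach trend, Mgst3 was 0.46 and Ugt2b35 0.60 without the poor arrays, Ugt2b35 0.066 without the rich ones and 0.25 with the covariate. Mgst1 was 0.15 and Ugt2a3 −0.022 with slide as a block, and Ugt2a3 −0.074 with the scanner's ratio. That ratio also turned the trends of Sult1b1 in liver (−0.28) and Sult1a1 in lung (0.015). Other probes turned Ugt1a6b in liver (−0.28 at D3, −0.26 for the trend), the trend of Gstm1 in lung (−0.00014) and the vehicle difference of Gstm2 between lung and liver (−0.99). Leaving out single arrays moved forestomach changes at D3 across 0 for Gsta2 (−1.67 to 0.10), Gsta3 (−0.21 to 0.75), Sult1a1 (−0.071 to 1.09), Sult1b1 (−2.68 to 0.51), Sult1c2 (−3.44 to 0.059), Sult1e1 (−1.99 to 0.0044) and Ugt2a3 (−0.27 to 0.75). It did so for the forestomach trends of Mgst1 (−0.47 to 0.29), Mgst3 (−1.44 to 0.090), Ugt2a3 (−0.35 to 0.54) and Ugt2b35 (−1.09 to 0.33), and in liver for Gsta1 at D3 (−0.18 to 0.21) and the trend of Mgst3 (−0.24 to 0.00045).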

Other observations

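The lung of D1 mouse 7, with its raised glandular markers, had the highest lung values of several members that were high in the glandular-rich forestomachs. Sult1c2 was 1.53, Sult1b1 1.37 and Ugt2b34 1.20 on this array. In the lung of D2 mouse 12, which had skeletal muscle, fat and squamous markers and a macrophage marker mean of 4.17 against a median of 1.66 over all lungs, 51.0% of member probes lay outside the range of the other 14 lungs, against 37.8% of all probes, and Sult2b1 was 2.13 there and −0.73 to −0.37 in the others. The liver of D3 mouse 17 had 21.7% of its member probes outside the range of the other 12, against 14.2% of all probes.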
